A study of Canis lupus with 23 samples.

Results

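The regulators of epithelial-mesenchymal transition (EMT) were read across canine tumors of 8 types. Of the 15115 genes named by the platform annotation, 10 were taken by symbol: the mesenchymal factors SNAI1, SNAI2, TWIST1, ZEB1, ZEB2 and PRRX1, and the epithelial factors ESRP1, ESRP2, GRHL2 and OVOL1. They were read by 20 probesets in all, and the level of a gene is the mean of log2(signal + 16) over its probesets. On this scale a signal of 0 gives 4.

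EMT is the program by which epithelial cells loosen their junctions and take on a motile, matrix-producing state. The SNAI, ZEB and TWIST proteins repress epithelial genes such as CDH1 (E-cadherin), PRRX1 is a homeobox factor of mesenchyme, and GRHL2 and OVOL1 hold the epithelial state, GRHL2 and ZEB1 repressing each other. ESRP1 and ESRP2 are RNA-binding proteins that set the epithelial pattern of splicing. Several of these factors also have roles away from carcinoma: SNAI2 and ZEB2 are used by neural crest and melanocytes, and ZEB1 and ZEB2 by lymphocytes and myeloid cells.

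Tumor biopsies of 23 dogs were profiled, 1 array each, in a program that used tumor expression to propose therapies. The types with replicates were lymphoma (7), melanoma (5), sarcoma (4) and transitional cell carcinoma of the bladder (TCC, 3). Sarcoma joined 2 tumors labelled STS (soft tissue sarcoma) and 2 labelled Sarcoma, named here by their titles as STS 0, STS 1, sarcoma 0 and sarcoma 1. Hepatocellular carcinoma (HCC), nasal carcinoma, hemangiosarcoma (HSA, of vessel-lining cells) and histiocytic sarcoma (of the macrophage and dendritic lineage) had 1 tumor each and were not tested. The labels give the diagnosis alone, with no age, sex, breed or treatment, and no normal tissue was analysed here. The study enrolled its TCC cohort from Scottish terriers and a lymphoma cohort from golden retrievers, so breed and type cannot be told apart in the comparisons with TCC or lymphoma. Each tumor was from a different dog, so errors are the spread between dogs. The number of arrays limits the precision.

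The labels were checked against marker lists, each taken as the mean level of its genes. The melanocyte list lay at 10.16 to 10.56 in the melanomas and at no more than 6.29 in the other 18 tumors. The urothelium list lay at 9.69 to 10.72 in TCC and at no more than 5.88 elsewhere. The hepatocyte list stood at 13.90 in HCC, the airway epithelium list at 9.54 in the nasal carcinoma, the endothelium list at 10.76 in HSA and the macrophage list at 11.25 in the histiocytic sarcoma, each the highest of the 23 tumors. The fibroblast list lay at 11.63 to 12.90 in the sarcomas, which overlapped the melanomas (9.40 to 11.78). The T cell list reached 12.68 and the B cell list 10.97 in the lymphomas, and both overlapped other types at their lower ends. In such bulk tissue, fewer cells of a type and less RNA per cell cannot be told apart.

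Among the 4 replicated types, all 8 of the 10 factors that were tested differed, against 35.6% of the 9972 genes tested. Adjusted p ran from 7.68e-06 for GRHL2 to 0.0134 for ZEB1 (limma F test). SNAI1 and TWIST1 did not pass the filter on low genes, which asked for at least 3 of the 23 arrays above a level of 7.03, the median of all gene values. SNAI1 did so on 0 arrays and TWIST1 on 2. OVOL1 passed through the 3 TCC arrays alone, ESRP2 through those and HCC, and GRHL2 through those, the nasal carcinoma and 1 melanoma, so passing the filter already favored a difference for these genes. With no filter all 10 factors were tested and the 8 calls were unchanged in number, with adjusted p of 0.857 for SNAI1 and 0.220 for TWIST1. The share of all genes called with no filter was not counted.

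**Figure D1:**
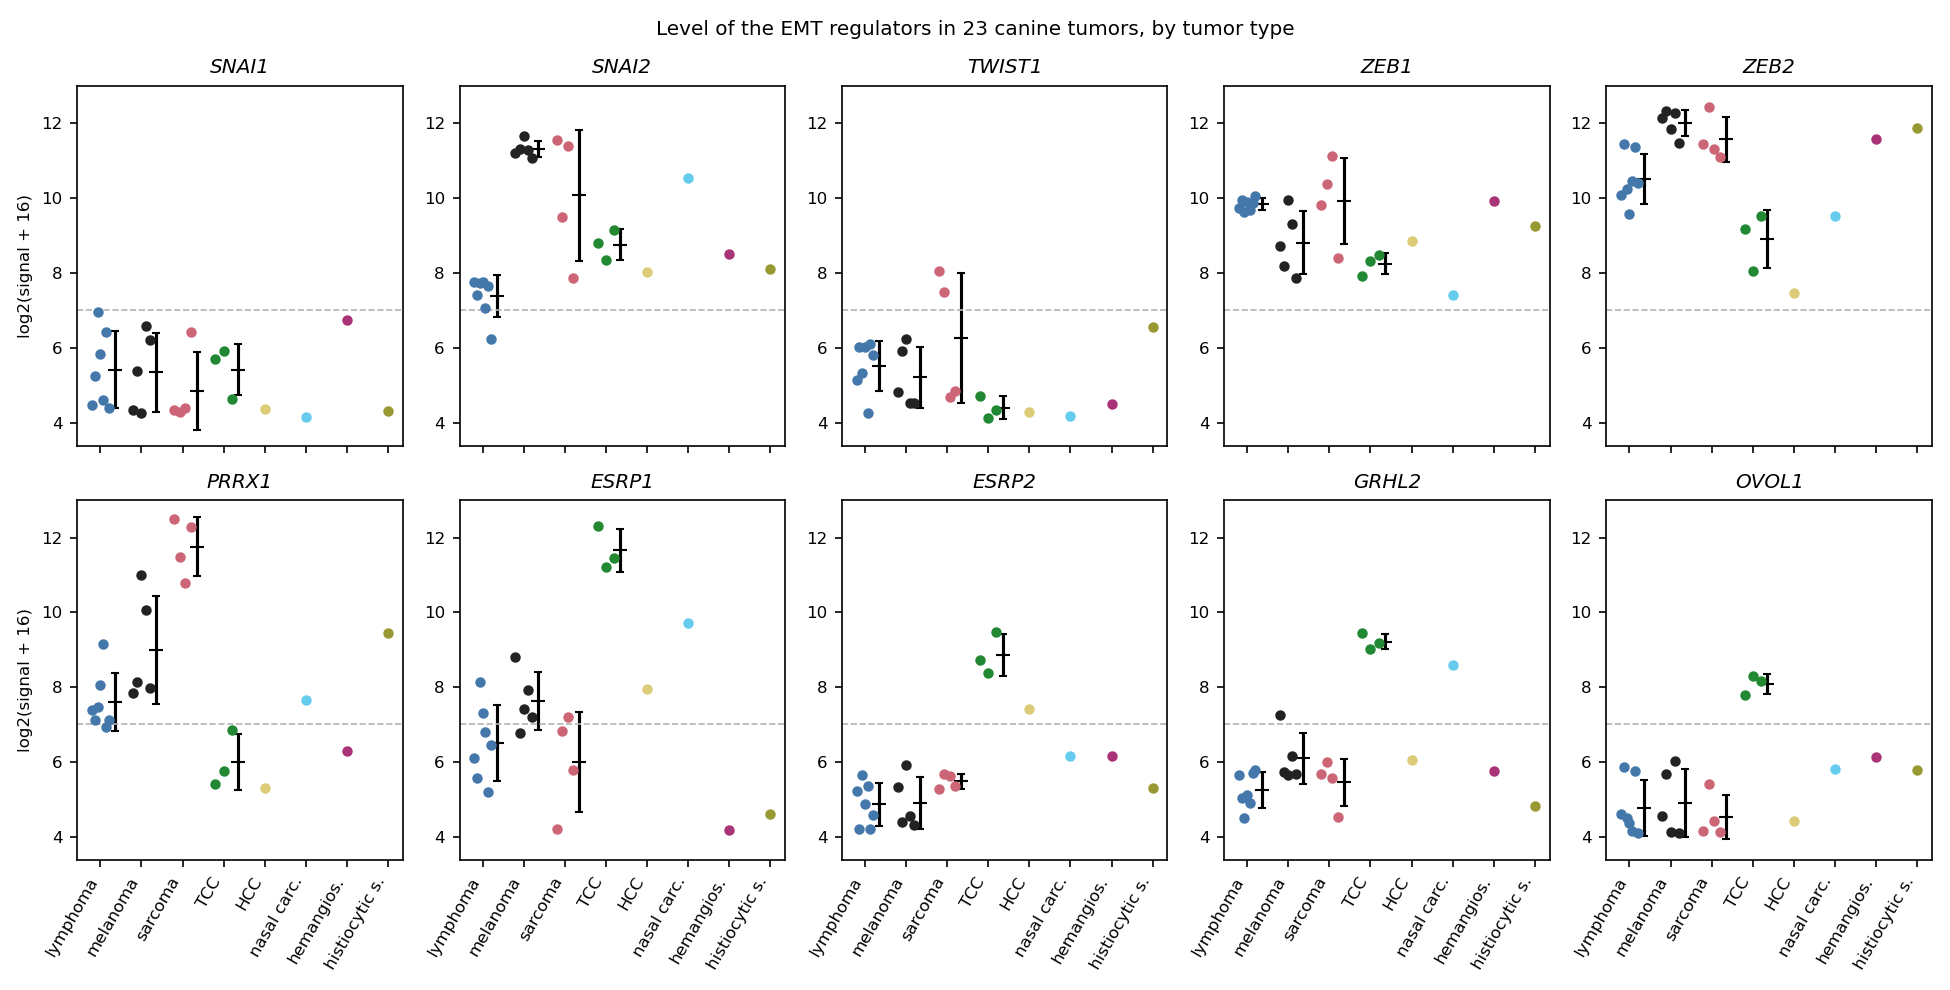
Level of each factor, as log2(signal + 16), in the 23 tumors by type. Each point is a tumor, the bars beside the replicated types are mean ± SD, and the dashed line is the filter level of 7.03. The 3 TCC points stand above lymphoma, melanoma and sarcoma for ESRP1, ESRP2, GRHL2 and OVOL1, and below them for ZEB2 and PRRX1.

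The epithelial factors were highest in TCC, where all 4 were above all 16 tumors of the other replicated types. The share of all genes placed in this way was not counted, so how unusual this is cannot be said. ESRP1 stood at 12.30, 11.21 and 11.46 in TCC 0, 1 and 2. It stood at 8.81, 6.79, 7.42, 7.92 and 7.20 in melanoma 0 to 4, at 4.22 in STS 0, 7.21 in STS 1, 6.83 in sarcoma 0 and 5.79 in sarcoma 1, and between 5.21 and 8.13 in the lymphomas (median 6.46). The other types overlapped one another widely, and TCC was clear of all of them. ESRP1 was higher in TCC than in sarcoma by 5.64 ± 0.69 (SE; adjusted p = 2.04e-05), a difference understated by the + 16, since 3 of the 4 sarcomas were below the filter level. It exceeded lymphoma by 5.14 ± 0.62 (adjusted p = 7.06e-06) and melanoma by 4.03 ± 0.66 (adjusted p = 0.000374).

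ESRP2, the close relative of ESRP1, stood at 8.74, 8.38 and 9.47 in the 3 TCC. In melanoma 0 to 4 it stood at 5.36, 4.42, 5.92, 4.57 and 4.33, in STS 0 and 1 at 5.29 and 5.64, in sarcoma 0 and 1 at 5.69 and 5.37, and in lymphoma from 4.21 to 5.67 (median 4.88). Every tumor of these 3 types was below the filter level, so differences among them were within the dim range of the array. TCC was higher by 3.98 ± 0.46 than lymphoma (adjusted p = 4.09e-06), by 3.94 ± 0.48 than melanoma and by 3.37 ± 0.51 than sarcoma, and since the + 16 compresses dim values these differences are understated.

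GRHL2, the Grainyhead-like activator of junction genes, stood at 9.44, 9.04 and 9.19 in TCC, the tightest of the 4 epithelial factors there (SD 0.21). In melanoma 0 to 4 it stood at 7.28, 5.74, 5.66, 6.17 and 5.68, in STS 0 and 1 at 5.70 and 5.59, in sarcoma 0 and 1 at 6.01 and 4.55, and in lymphoma from 4.52 to 5.80 (median 5.13). Melanoma 0 was the one tumor of these types above the filter level, and TCC lay above it without overlap. TCC exceeded lymphoma by 3.97 ± 0.43 (adjusted p = 2.15e-06), sarcoma by 3.76 ± 0.48 (adjusted p = 3.03e-05) and melanoma by 3.12 ± 0.46 (adjusted p = 0.000109).

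OVOL1, a zinc finger factor of epithelial differentiation, stood at 7.79, 8.32 and 8.17 in TCC. It stood at 4.56, 5.70, 4.13, 6.04 and 4.12 in melanoma 0 to 4, at 4.17 and 4.44 in STS 0 and 1, at 5.42 and 4.14 in sarcoma 0 and 1, and from 4.12 to 5.88 in lymphoma (median 4.51). Several of these lie next to 4, the level of no signal, and no tumor outside TCC reached the filter level. TCC was higher by 3.31 ± 0.56 than lymphoma, 3.18 ± 0.59 than melanoma and 3.55 ± 0.62 than sarcoma (adjusted p from 0.000235 to 0.00118).

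With the urothelium list as well as these 4 factors raised in TCC, their level per epithelial cell cannot be read from whole biopsies. Among the non-epithelial types, melanoma 0 had the highest ESRP1 (8.81) and GRHL2 (7.28). It also had the highest mean of the stratified epithelium list of the melanomas (9.89, against 6.41 to 8.35 in melanoma 1 to 4), of which 4 of 7 genes were on the array. The other melanomas did not keep this order. Melanoma 1, next in the list (8.35), had the lowest ESRP1 of the melanomas (6.79). Melanoma 3, lowest in the list (6.41), came next after melanoma 0 in ESRP1 (7.92) and GRHL2 (6.17). The part of surface epithelium in these values was not tested. Without melanoma 0, ESRP1 was still higher in TCC than in melanoma by 4.33, and GRHL2 by 3.41.

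In the comparisons with TCC, the probesets of a factor mostly moved together. Both ESRP1 probesets gave 4.79 and 5.49 more in TCC than in lymphoma, and both ESRP2 probesets gave 3.18 and 4.79. GRHL2 was the exception: of its 3 probesets, the first and the last in the plot of probesets were higher in TCC than in lymphoma by 5.01 and 6.01, and the middle one by 0.89. The gene mean is therefore pulled down by 1 probeset, and with the probeset of highest mean signal alone the difference was 6.01. The 5 ZEB1 probesets gave differences of -1.77 to -1.36 in the same comparison, and the 3 PRRX1 probesets gave -5.94 to -5.52 in TCC against sarcoma. Among the other types the probesets agreed less. ESRP2 gave 1.34 and -0.19 in sarcoma against melanoma. In sarcoma against lymphoma GRHL2 ran from -0.46 to 0.57 and ZEB1 from -0.20 to 0.31. SNAI1, SNAI2, TWIST1, ZEB2 and OVOL1 rest on 1 probeset each.

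**Figure D2:**
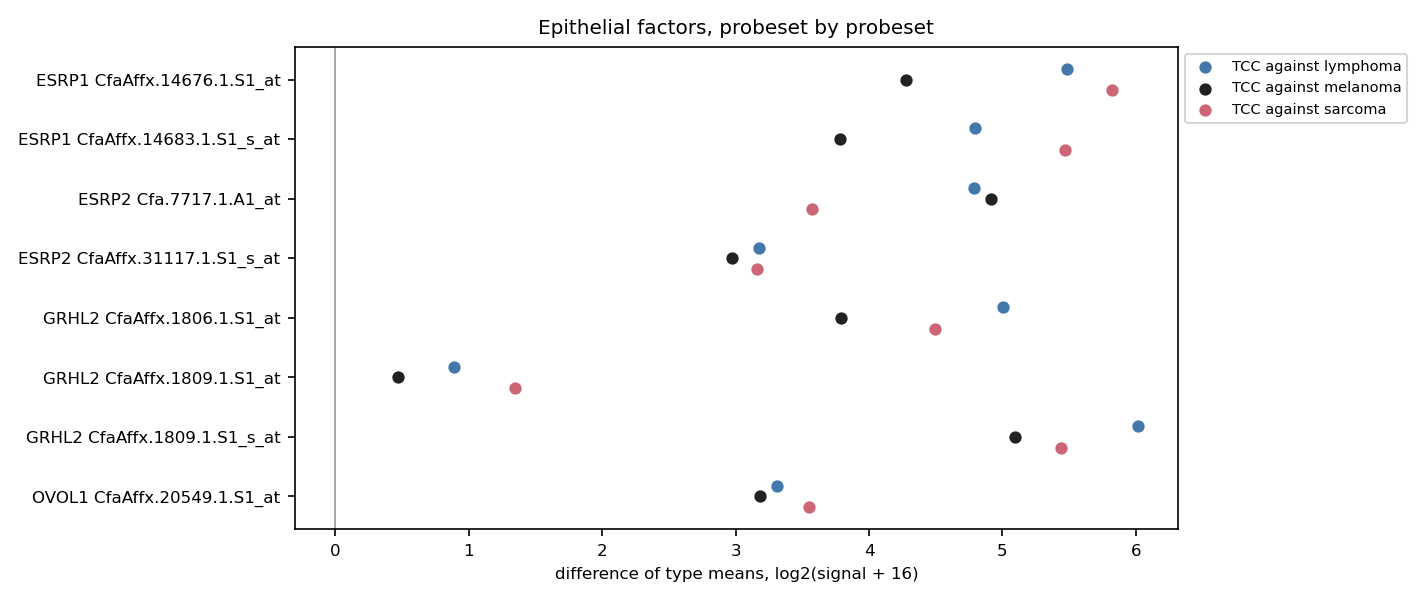
Difference of type means on log2(signal + 16), TCC minus each other replicated type, for every probeset of the 4 epithelial factors. All 24 points lie above 0; the middle GRHL2 probeset lies lowest, at 0.47 to 1.34.

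The mesenchymal factors did not share 1 pattern. SNAI2 (Slug), which acts in neural crest and melanocytes as well as in EMT, was uniformly high in melanoma, at 11.21, 11.32, 11.67, 11.29 and 11.09 in melanoma 0 to 4. In the sarcomas it ranged from 7.87 in sarcoma 1 through 9.51 in sarcoma 0 to 11.41 in STS 1 and 11.56 in STS 0. In TCC it stood at 8.80, 8.34 and 9.16, and in lymphoma from 6.25 to 7.78 (median 7.68). Lymphoma lay below every tumor of the other replicated types, melanoma lay above TCC, and the sarcomas spread over nearly the whole range between. SNAI2 was higher in melanoma than in lymphoma by 3.92 ± 0.47 (adjusted p = 9.2e-06, 15.2-fold on the signal + 16 scale) and than in TCC by 2.55 (adjusted p = 0.00718). It was higher in sarcoma than in lymphoma by 2.69 ± 0.50 (adjusted p = 0.00081). TCC against lymphoma did not pass (1.38, 95% CI 0.23 to 2.53, adjusted p = 0.0812), nor did TCC against sarcoma (-1.32, CI -2.59 to -0.04, adjusted p = 0.191) or sarcoma against melanoma (-1.23, CI -2.35 to -0.11, adjusted p = 0.294). TCC against sarcoma passed in 0 of 8 other settings and in 1 of 19 fits with a tumor left out. That 1 fit was without sarcoma 1, the sarcoma with the lowest SNAI2 (-2.06, adjusted p = 0.00807).

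ZEB1 was most even in lymphoma, was as high on average in sarcoma (9.94 against 9.84) and was lower in TCC. It lay between 9.63 and 10.07 in the 7 lymphomas (median 9.88, SD 0.16), and stood at 9.82 in STS 0, 11.14 in STS 1, 10.37 in sarcoma 0 and 8.42 in sarcoma 1. In melanoma 0 to 4 it stood at 8.72, 8.19, 9.97, 9.32 and 7.88, and in TCC at 7.94, 8.34 and 8.49. All lymphomas were above all TCC, whereas melanoma and sarcoma 1 reached down into the TCC range. ZEB1 was lower in TCC than in lymphoma by 1.58 ± 0.44 (adjusted p = 0.0142) and than in sarcoma by 1.68 ± 0.49 (adjusted p = 0.0329). Melanoma against lymphoma gave -1.03 (CI -1.81 to -0.24, adjusted p = 0.056) and TCC against melanoma -0.56 (CI -1.53 to 0.42, adjusted p = 0.524), neither of which passed. The call against lymphoma was lost without TCC 0 (-1.43, adjusted p = 0.0755). The call against sarcoma was lost without any of STS 0, STS 1, sarcoma 0, TCC 0, TCC 1 and TCC 2 (-1.80 to -1.28).

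ZEB2 was highest on average in melanoma (12.01, against 11.58 in sarcoma) and was lower in TCC than in all 3 other types. Sarcoma against melanoma did not pass (-0.43, CI -1.22 to 0.35, adjusted p = 0.662), and the highest single tumor was sarcoma 0. It stood at 12.14, 12.32, 11.84, 12.27 and 11.47 in melanoma 0 to 4, at 11.45 and 11.32 in STS 0 and 1, and at 12.44 and 11.10 in sarcoma 0 and 1. It lay from 9.58 to 11.44 in lymphoma (median 10.42), and stood at 9.18, 8.05 and 9.53 in TCC. The lowest lymphoma was just above the highest TCC, and lymphoma 1 (11.44) nearly touched melanoma 4 (11.47). ZEB2 was lower in TCC than in melanoma by 3.09 ± 0.41 (adjusted p = 3.82e-05), than in sarcoma by 2.66 ± 0.43 (adjusted p = 0.000417) and than in lymphoma by 1.59 ± 0.39 (adjusted p = 0.00563). It was 2.82-fold higher in melanoma than in lymphoma on the signal + 16 scale (adjusted p = 0.00321) and higher in sarcoma than in lymphoma by 1.06 ± 0.35 (adjusted p = 0.035). Without TCC 1 the difference of TCC from lymphoma was -1.16 (adjusted p = 0.0715). That of sarcoma from lymphoma lost its call without any of STS 0, sarcoma 0 and lymphoma 0, 2, 3 and 6 (0.78 to 1.11). Macrophages express ZEB2, and the mean of the macrophage list lay at 7.80 to 8.55 in TCC, 7.21 to 8.82 in lymphoma, 8.33 to 9.37 in melanoma and 7.93 to 9.96 in sarcoma. Their part in the ZEB2 levels was not tested.

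PRRX1 was the factor with the largest differences of sarcoma from the other replicated types. It stood at 12.49 and 10.78 in STS 0 and 1 and at 11.48 and 12.27 in sarcoma 0 and 1. In melanoma 0 to 4 it stood at 7.84, 8.14, 11.00, 10.05 and 7.97, in lymphoma from 6.94 to 9.17 (median 7.39), and in TCC at 5.43, 5.76 and 6.86. Sarcoma was above every lymphoma and TCC, melanoma 2 reached into the sarcoma range, and TCC lay below all other replicated types. PRRX1 was lower in TCC than in sarcoma by 5.74 ± 0.69 (adjusted p = 1.63e-05) and than in melanoma by 2.99 ± 0.66 (adjusted p = 0.00529), differences understated by the + 16, since all 3 TCC were below the filter level. It was higher in sarcoma than in lymphoma by 4.14 ± 0.56 (adjusted p = 4.9e-05). It was also higher in sarcoma than in melanoma, by 2.75 ± 0.60 (adjusted p = 0.0208), which lost its call without STS 0 (2.51), sarcoma 1 (2.58), melanoma 0 (2.46) or melanoma 1 (2.54). TCC against lymphoma (-1.60, adjusted p = 0.072) and melanoma against lymphoma (1.39, adjusted p = 0.0651) did not pass.

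The fibroblast list moved with PRRX1 in part. Its mean level was 11.63 to 12.90 in sarcoma, 7.92 to 9.26 in lymphoma and 10.25 to 11.10 in TCC. Melanoma 2 and melanoma 3, which had the highest PRRX1 of their type, had fibroblast means of 10.80 and 11.78, against 9.40 to 10.28 in melanoma 0, 1 and 4. TCC departed from this: 5 of the 7 fibroblast genes were higher in TCC than in lymphoma (10.4% of all genes), while its PRRX1 lay below that of every lymphoma. That PRRX1 difference did not pass (adjusted p = 0.072). The part of fibroblasts in the PRRX1 differences was not tested.

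SNAI1 stayed in the dim range on all arrays, and TWIST1 on all but 2. SNAI1 (Snail) lay from 4.40 to 6.98 in lymphoma, 4.29 to 6.58 in melanoma, 4.29 to 6.43 in sarcoma and 4.66 to 5.92 in TCC, with all types overlapping. TWIST1, a helix-loop-helix factor of mesoderm, lay from 4.27 to 6.10 in lymphoma, 4.54 to 6.26 in melanoma and 4.14 to 4.74 in TCC. The 2 arrays with TWIST1 above the filter level were STS 0 (8.05) and sarcoma 0 (7.49), while STS 1 (4.69) and sarcoma 1 (4.86) were not among them. Of the single tumors, HSA had the highest SNAI1 (6.76) and the histiocytic sarcoma the highest TWIST1 (6.56), and the others lay between 4.17 and 4.53 for both genes. No test passed for either gene, and each rests on 1 probeset. With no filter, TWIST1 in TCC against sarcoma gave -1.87 (SE 0.70, limma adjusted p = 0.132), with the sarcomas split between high and low. A lack of difference is not shown by these tests.

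Set against all genes, the calls fell as follows. In TCC against lymphoma, 4 of the 8 factors tested were higher in TCC (all epithelial, 10.4% of all genes tested) and 2 higher in lymphoma (ZEB1 and ZEB2, 7.69%). In TCC against melanoma, the same 4 were higher in TCC (5.73%) and SNAI2, ZEB2 and PRRX1 higher in melanoma (3.53%). In TCC against sarcoma, the 4 were higher in TCC (4.99%) and ZEB1, ZEB2 and PRRX1 higher in sarcoma (4.48%). Every call against TCC thus had the epithelial factors on the TCC side and mesenchymal factors on the other, with ZEB2 the mesenchymal factor called all 3 times. OVOL1, ESRP2 and GRHL2 passed the filter mostly through the TCC arrays, which already favored their calls. The shares of all genes are therefore no fair measure for these factors.

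In the 3 comparisons among lymphoma, melanoma and sarcoma, the 6 calls were all of mesenchymal factors. In sarcoma against lymphoma, SNAI2, ZEB2 and PRRX1 were higher in sarcoma (10.5% of all genes) and none higher in lymphoma (6.44%). In melanoma against lymphoma, SNAI2 and ZEB2 were higher in melanoma (9.35%) and none higher in lymphoma (6.01%). In sarcoma against melanoma, PRRX1 was higher in sarcoma (0.852%) and none higher in melanoma (0.933%). No epithelial factor passed in these 3 comparisons; the largest differences were 1.11 for ESRP1 in melanoma against lymphoma (CI 0.00 to 2.22) and -1.62 in sarcoma against melanoma (CI -2.88 to -0.35).

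**Figure D3:**
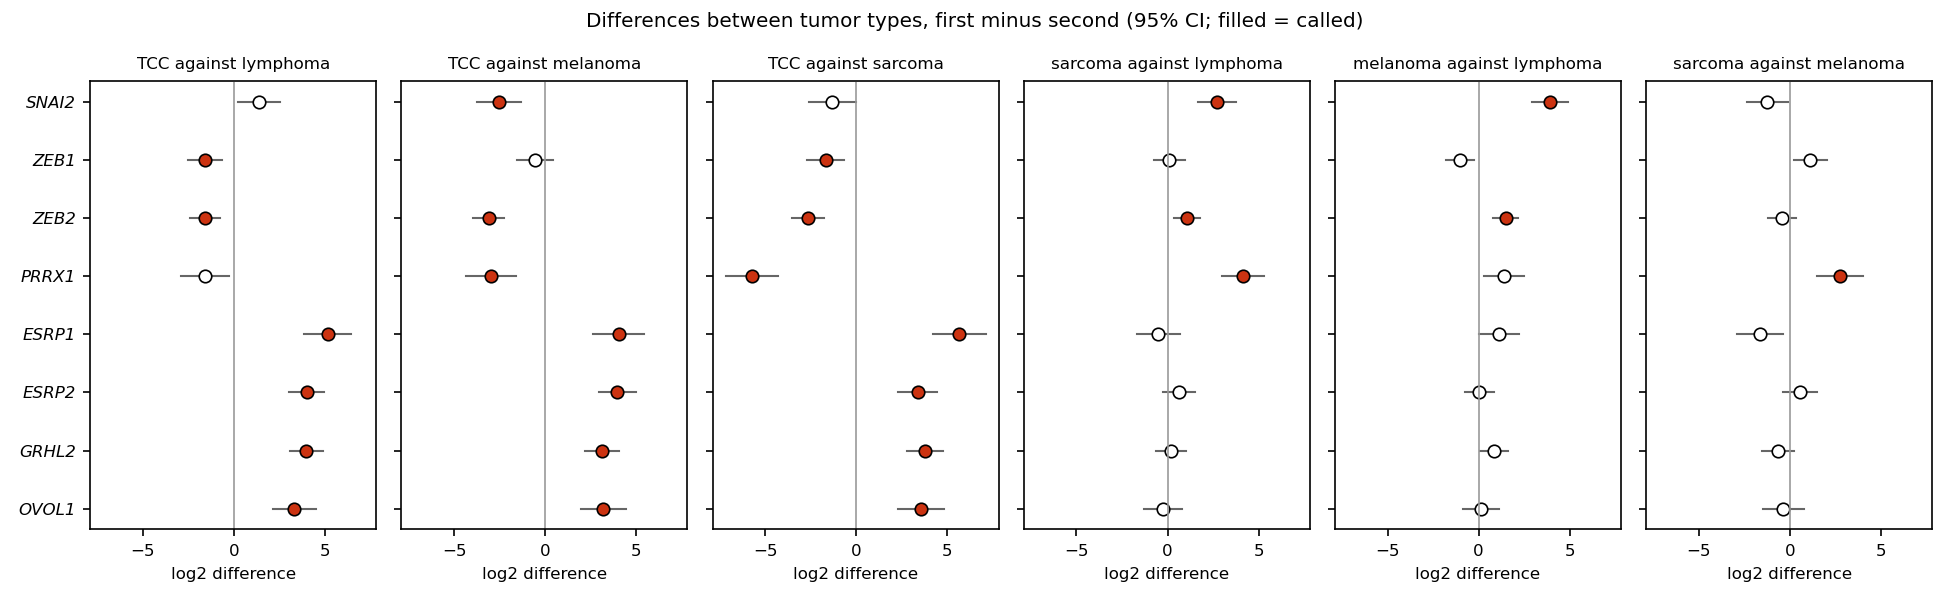
Log2 differences of the 8 tested factors in the 6 comparisons between types, first type minus second, with 95% confidence intervals. The 26 filled points passed (adjusted p under 0.05 and a difference of at least 1). The epithelial factors are filled in the 3 comparisons with TCC and open in the others, and the mesenchymal factors are filled in part in every panel.

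ZEB1 and ZEB2 are related zinc finger repressors with shared targets. ZEB2 was higher in melanoma than in lymphoma, and the ZEB1 difference there, -1.03, did not pass, so the pair was set side by side within each tumor, chosen after these values were seen and given as a description with no test. ZEB2 minus ZEB1 was 3.41, 4.14, 1.88, 2.95 and 3.59 in melanoma 0 to 4, and between -0.34 and 1.49 in the 7 lymphomas. No lymphoma reached the lowest melanoma, and the means were 3.19 ± 0.85 and 0.67 ± 0.65 (SD). A high value was not particular to melanoma. Sarcoma 0 (2.07), sarcoma 1 (2.68), the histiocytic sarcoma (2.63) and the nasal carcinoma (2.13) were above melanoma 2 (1.88). The remaining tumors of other types were below it. Since the genes are read by different probesets, the sign of ZEB2 minus ZEB1 in a tumor has no meaning of its own.

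**Figure D4:**
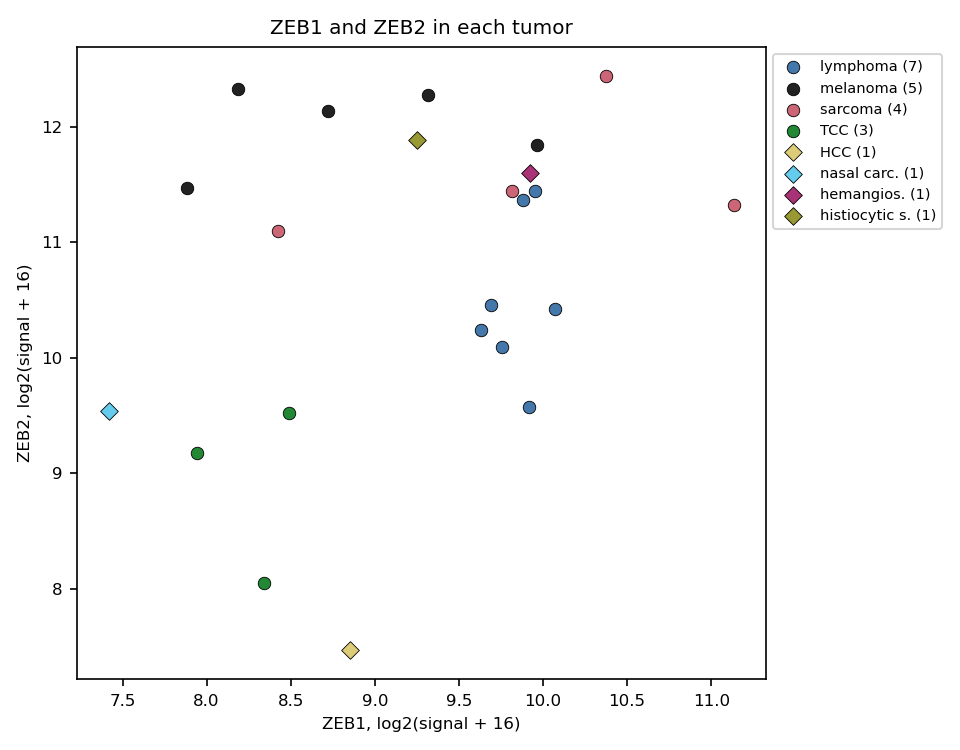
ZEB1 against ZEB2, both as log2(signal + 16), in the 23 tumors; circles are replicated types and diamonds single tumors. The melanomas lie at high ZEB2 (11.47 to 12.32) over a wide range of ZEB1, the lymphomas in a narrow range of ZEB1 (9.63 to 10.07), and the 3 TCC, HCC and the nasal carcinoma below 10 for ZEB2.

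The single tumors of epithelial origin were next to TCC in some epithelial factors and among the other types in the rest. The nasal carcinoma had ESRP1 at 9.72, GRHL2 at 8.61, ESRP2 at 6.18 and OVOL1 at 5.83, so that ESRP1 and GRHL2 ranked next after TCC, and OVOL1 was below the filter level and below HSA, melanoma 3 and lymphoma 1. Its ZEB1 (7.42) was the lowest of the 23 tumors, while its SNAI2 (10.56) was above every TCC, lymphoma and sarcoma 0 and 1. HCC had ESRP1 at 7.97, ESRP2 at 7.43, GRHL2 at 6.06 and OVOL1 at 4.44. Its ESRP2 ranked next after TCC on the strength of both probesets (signals of 217 and 112), its ESRP1 was within the melanoma and lymphoma range, its GRHL2 was below melanoma 0 and 3, and its OVOL1 was near the level of no signal. HCC also had the lowest ZEB2 of all tumors (7.47) and the lowest PRRX1 (5.31), with SNAI2 at 8.04 and ZEB1 at 8.85. In the nasal carcinoma ZEB2 was 9.54, next to the highest TCC, and PRRX1 was 7.67, above every TCC.

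The 2 single non-epithelial tumors resembled each other in the ZEB genes. HSA had ZEB1 at 9.92 and ZEB2 at 11.60, and the histiocytic sarcoma 9.25 and 11.88, all inside the range of the sarcomas. Their SNAI2 (8.52 and 8.11) lay below that of 3 of the 4 sarcomas. PRRX1 was 6.30 in HSA, within the TCC range, and 9.45 in the histiocytic sarcoma. Their ESRP1 was 4.20 and 4.63, close to the level of no signal. ESRP2, GRHL2 and OVOL1 were 6.18, 5.78 and 6.15 in HSA and 5.31, 4.82 and 5.80 in the histiocytic sarcoma, all under the filter level. With no replicate, none of these values has an error.

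As a summary of each tumor, the level of each factor was turned to a z-score over the 23 tumors and averaged within the 2 groups. The epithelial mean was 1.94 to 2.15 in TCC, 0.85 in the nasal carcinoma, 0.17 in HCC and 0.13 in melanoma 0, and below 0 in the other 17 tumors. The mesenchymal mean was 0.21 to 1.01 in sarcoma, 0.00 to 0.69 in melanoma, -0.36 to 0.26 in lymphoma, -0.84 to -0.65 in TCC, -0.75 in the nasal carcinoma and -1.13 in HCC. Without SNAI1 and TWIST1, which did not pass the filter, the mean of the other 4 was 0.12 to 1.22 in sarcoma, 0.00 to 1.07 in melanoma and -0.41 to -0.08 in lymphoma, so that the overlap of lymphoma with the other 2 types in the mean of 6 was not seen in the mean of 4. The tumors low in epithelial factors thus covered a wide range of mesenchymal values, with lymphoma 4 (-0.36) and STS 0 (1.01) at its ends.

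**Figure D5:**
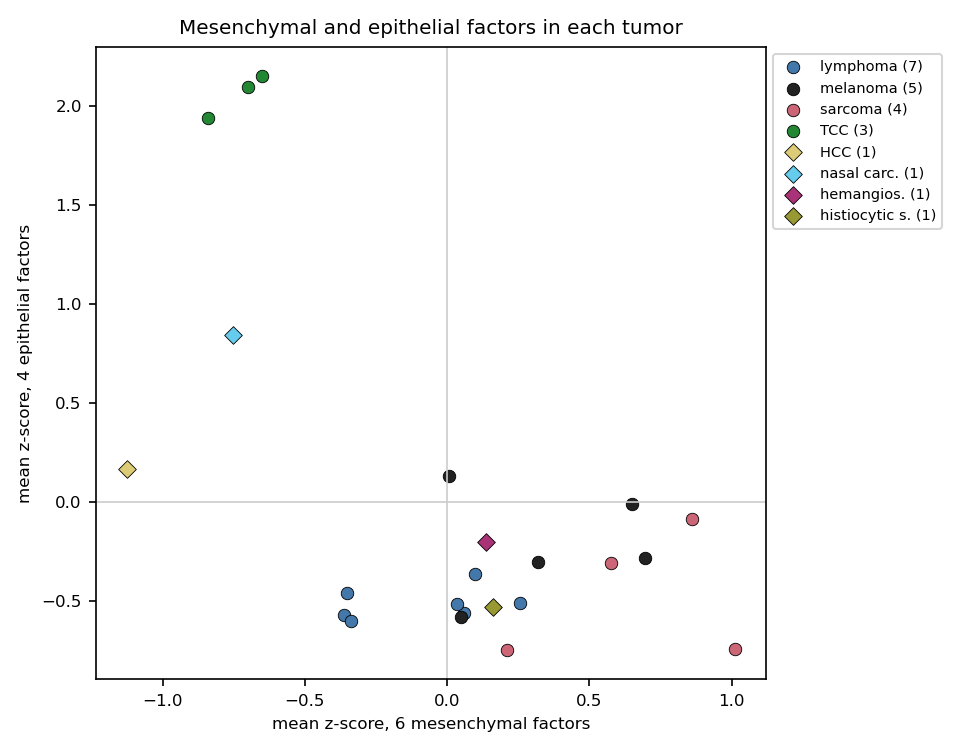
Mean z-score over the 23 tumors of the 6 mesenchymal factors (horizontal) and the 4 epithelial factors (vertical); circles are replicated types and diamonds single tumors. The 3 TCC stand alone at 1.94 to 2.15 on the vertical axis, while the tumors below 0 there run from -0.36 to 1.01 on the horizontal axis.

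Across the 23 tumors, the epithelial factors followed one another more closely than the mesenchymal factors did, given as a description over tumors whose types differ. Pearson's r ran from 0.58 (ESRP1 and OVOL1) to 0.83 (ESRP1 and GRHL2) among the epithelial factors, and from -0.24 (SNAI1 and TWIST1) to 0.61 (ZEB2 and PRRX1) among the mesenchymal. Between the groups it was -0.66 for ZEB2 and ESRP2, -0.57 for ZEB1 and GRHL2, and 0.20 for SNAI2 and GRHL2. The other epithelial factors gave 0.12 (ESRP1), -0.05 (ESRP2) and -0.05 (OVOL1) with SNAI2.

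The genes whose pattern over the 23 tumors was most like a factor, by Pearson's r, differed from one factor to the next. For ESRP1 they were KCNK1 (0.88), PROM2 (0.87) and PTPRF (0.86), for GRHL2 KCNK1 (0.92), EHF (0.92) and AGR2 (0.91), for ESRP2 PDZK1IP1 (0.90), VGLL1 (0.90) and EMP2 (0.88), and for OVOL1 GABRP (0.86), MUC1 (0.85) and MAL (0.84). PRRX1 ran with the matrix genes PCOLCE (0.90), POSTN (0.87) and COL6A3 (0.84), and ZEB2 with VIM (vimentin, 0.85), CCDC88A (0.84) and CEP170 (0.84). ZEB1 ran with EMSY (0.81), PNISR (0.79) and SF3B1 (0.78), and SNAI2 with GFPT1 (0.86), WWTR1 (0.84) and SULF2 (0.84). The dim factors had the weakest likeness, with NDP (0.78), STK38 (0.68) and THY1 (0.66) for TWIST1 and BORCS6 (0.59), PLSCR1 (0.58) and UPF2 (0.57) for SNAI1.

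Genes that the factors act on were read from lists. Of 23 epithelial targets, 20 were on the array and 14 passed the filter. Each TCC had 14 or 15 of the 20 above the filter level, and each tumor of the other replicated types 2 to 9. Passing the filter thus already favored a call higher in TCC, so the counts below are not set on equal terms with all genes. In TCC, 13 of the 14 were higher than in lymphoma (10.4% of all genes), 13 than in melanoma (5.73%) and 10 than in sarcoma (4.99%), with medians of 4.35, 4.65 and 4.88 against -0.11, -0.03 and -0.04 over all genes. EPCAM, an adhesion molecule of epithelia, was higher in TCC than in sarcoma by 7.96, the keratin KRT18 by 6.75, the tight junction protein OCLN by 6.41 and the keratin KRT8 by 5.78. Melanoma against lymphoma and sarcoma against melanoma had 0 of 14 called, and sarcoma against lymphoma had 3 (10.5% of all genes), MARVELD2 (1.77), KRT8 (1.67) and JUP (1.35), all higher in sarcoma.

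The other epithelial transcription factors followed the same course. Of 7 that passed the filter, 7 were higher in TCC than in lymphoma, 6 than in melanoma and 7 than in sarcoma, against the same 10.4%, 5.73% and 4.99% of all genes. Each TCC had 7 of the 8 genes on the array above the filter level, and each tumor of the other replicated types 0 to 2. Passing the filter thus already favored a call higher in TCC, so these counts are not set on equal terms with all genes. The ETS factor EHF was higher in TCC than in sarcoma by 5.23, the Krüppel-like factor KLF5 by 4.63, ELF3 by 3.36 and TP63, the p53 relative of basal epithelium, by 2.92. GRHL1 and GRHL3, the relatives of GRHL2, exceeded sarcoma by 2.83 and 2.43, and OVOL2 by 2.29. KLF5 also passed outside TCC, higher than in lymphoma by 3.17 in melanoma and by 2.01 in sarcoma.

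Mesenchymal target genes did not follow the ZEB factors in every comparison. Of 19 tested, 14 were higher in sarcoma than in lymphoma (10.5% of all genes; median 2.29; FAP 6.23, POSTN 4.39, COL1A2 4.18 and COL3A1 3.56) and 12 in melanoma than in lymphoma (9.35%; median 1.92; MMP2 3.25, FAP 3.14, COL1A1 2.88 and COL1A2 2.75). Lymphoma had higher ZEB1 and ZEB2 than TCC, yet 6 of the 19 were higher in TCC (10.4%; median 1.24; FAP 3.25, MMP2 1.72, COL5A1 1.58 and COL1A1 1.45) and none higher in lymphoma (7.69%). TCC was lower than sarcoma in 10 (4.48%; POSTN -4.02, THY1 -3.06, FAP -2.97 and COL1A2 -2.94) and lower than melanoma in 2 (3.53%; VIM -2.33 and SPARC -1.30). Most of the genes named here are made in quantity by fibroblasts, 3 of the collagens are in the fibroblast list too, and the part of stroma was not tested. Sarcoma against melanoma had 1 called (0.852% of all genes higher in sarcoma), POSTN, by 2.25.

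Of 6 splicing regulators, 3 were higher in melanoma than in lymphoma (9.35% of all genes), 2 in sarcoma (10.5%) and 2 in TCC (10.4%). Lymphoma had 1 higher than TCC (7.69%). TCC had 1 higher and 1 lower than melanoma (5.73% and 3.53%) and than sarcoma (4.99% and 4.48%). Sarcoma had 1 higher than melanoma (0.852%). With so few genes nothing is read from these counts. Among 6 splicing regulators besides ESRP1 and ESRP2, RBM47, an epithelial RNA-binding protein, was higher in TCC than in melanoma by 2.38 and than in sarcoma by 2.55. QKI, which promotes mesenchymal splicing, was lower in TCC than in melanoma by 1.82 and lower than in sarcoma (adjusted p = 0.0311), and higher in melanoma than in lymphoma by 1.68. RBFOX2 exceeded lymphoma in TCC (1.19), melanoma (1.03) and sarcoma (2.16), as did MBNL2 (1.66, 2.09 and 1.62), and MBNL1 was lower in TCC than in lymphoma by 1.10. RBFOX2 was higher in sarcoma than in melanoma by 1.13.

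Of 10 genes of the TGFB pathway, an inducer of EMT, that passed the filter, between 0 and 2 were called in each comparison. Against lymphoma, 2 were higher in sarcoma (10.5% of all genes), 1 in melanoma (9.35%) and 1 in TCC (10.4%). Sarcoma had 2 higher than melanoma (0.852%) and 2 higher than TCC (4.48%), and TCC against melanoma had 0. The share was near that of all genes against lymphoma and above it for sarcoma against melanoma and TCC. With so few genes nothing is read from the list. The calls are given as single genes. The ligand TGFB2 was higher than in lymphoma by 1.61 in melanoma and 1.76 in sarcoma. The coreceptor TGFBR3 was higher in sarcoma than in lymphoma by 2.16, than in melanoma by 2.74 and than in TCC by 2.64, and the receptor TGFBR2 was higher in sarcoma than in melanoma by 1.67. Of the SMAD inhibitors, SKI was lower in TCC than in sarcoma by 1.61 and SKIL higher in TCC than in lymphoma by 1.28. Of 4 other mesenchymal factors tested, TCF4 was higher in sarcoma than in melanoma by 2.17 and than in TCC by 2.22, and lower than lymphoma by 1.33 in melanoma and 1.38 in TCC, and PRRX2 was higher in sarcoma than in lymphoma by 1.80. Of 5 partners tested, 2 were lower in sarcoma than in lymphoma (6.44% of all genes) and 2 than in melanoma (0.933%). TCC had 1 lower than lymphoma (7.69%) and 1 higher than sarcoma (4.99%). Nothing is read from these few genes as a list. HDAC1 was lower than in lymphoma by 1.22 in TCC and 1.47 in sarcoma and lower in sarcoma than in melanoma by 1.01. SMARCA4 was lower in sarcoma than in lymphoma by 1.58, than in melanoma by 1.04 and than in TCC by 1.17.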

How the data were processed

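Tumor RNA of 23 dogs was amplified and hybridised to the Affymetrix Canine Genome 2.0 array. The authors deposited MAS5 intensity values, in which each probeset has 1 linear signal and each array is scaled. The trimmed mean (2% off each end) was 500.1 on each array, the median signal 82.4 to 132.9, and 19.8% to 27.2% of probesets lay below a signal of 16. The table used gives no detection calls.

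Probesets other than controls numbered 42860. The platform annotation pairs 29254 of them with 1 symbol, and the 439 with several and the 13167 unnamed here were not used. Values were averaged per gene as log2(signal + 16). Genes above 7.03 on 3 arrays or more (9972 genes) were fitted by type over the 19 tumors of the 4 replicated types with limma 3.58.1 in R 4.3.3 (eBayes with a variance trend). The F test and 6 two-sided contrasts were adjusted by Benjamini-Hochberg over all fitted genes. A call needed an adjusted p under 0.05 and a log2 difference of at least 1 (F test: adjusted p alone). The fit was tested on simulated data.

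Genes named are the 10 factors, the 3 kept genes most correlated with each (leaving out locus numbers), and up to 4 called genes of each list with the largest difference in a comparison; GRHL1, GRHL3 and OVOL2 were added after their values were seen. The factors and lists were chosen with earlier results of these data known. Each result was recomputed with a pseudocount of 1 or 64, after quantile normalization, without the filter, with the probeset of highest mean signal, without the variance trend, with the title number as a replicate block, with calls by adjusted p alone, and with each tumor left out.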

Additional observations from a re-analysis of the deposited data

Results flagged for a closer look

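Of 30 groups of 4 or more tumors examined (10 factors in lymphoma, melanoma and sarcoma), 1 held a tumor far from the others. SNAI1 stood at 6.43 in sarcoma 1, and the next sarcoma was at 4.41, a gap of 0.947 of the range of the 4 tumors. Chance alone puts about 1 group in 20 past this limit, and the value lies below the filter level of 7.03.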

How the results depend on the processing

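Of 48 differences of a tested factor between 2 types, 26 were called, and 21 of them were called under each of the 8 alternatives and without each of the 19 tumors. The other 5 (ZEB1 in TCC against lymphoma and against sarcoma, ZEB2 in TCC and in sarcoma against lymphoma, PRRX1 in sarcoma against melanoma) lost the call somewhere. No pairing by title number was seen, though this check cannot exclude it. Mean r was 0.01 over 23 same-number pairs of different type (-0.12 to 0.09). It was -0.002 over 108 different-number pairs (-0.20 to 0.13). With the number as a replicate block, ZEB1 gave -1.60 in TCC against lymphoma (adjusted p = 0.0611) and -1.86 against sarcoma (0.0579), ZEB2 gave 1.05 in sarcoma against lymphoma (0.133) and ESRP2 gave -0.15 in melanoma against lymphoma. Of 12 reversals none concerned a called difference: ESRP2 in melanoma against lymphoma, 0.04, became -0.12 with the probeset of highest mean signal and -0.21 to 0.18 with a tumor left out. With a tumor left out ESRP1 in sarcoma against lymphoma ran from -0.91 to 0.0907, ZEB1 there from -0.30 to 0.60 and OVOL1 in melanoma against lymphoma from -0.15 to 0.33. The number of factors called with a tumor left out was 8 by the F test, 5 to 7 in TCC against lymphoma, 7 against melanoma, 6 to 8 against sarcoma, 2 to 3 in sarcoma and in melanoma against lymphoma, and 0 to 1 in sarcoma against melanoma, 0 without STS 0, melanoma 0 or melanoma 1. Calls gained were PRRX1 in TCC against lymphoma with a pseudocount of 1 (-2.07) or without melanoma 2 (-1.60), PRRX1 in melanoma against lymphoma with the highest probeset (1.52) or without lymphoma 4 (1.65), melanoma 0 (1.68) or melanoma 4 (1.65), ZEB1 in melanoma against lymphoma without STS 1 (-1.03), sarcoma 1 (-1.03) or melanoma 2 (-1.31), and, without sarcoma 1, SNAI2 in TCC against lymphoma (1.38) and sarcoma (-2.06) and ZEB1 in sarcoma against melanoma (1.63). The cause was not tested. Dim signals limit SNAI1, TWIST1, OVOL1 and ESRP2.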
